A study of Ovis aries with 49 samples.

Results

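Integrins, cadherins, protocadherins, catenins, claudins and connexins are the proteins by which cells hold on to the matrix and to each other. Integrins are pairs of an alpha and a beta chain that bind collagen, fibronectin or laminin outside the cell and, through talin and vinculin, actin inside it. Cadherins join neighbouring cells and are tied to actin by catenins, claudins form the strands of tight junctions, and connexins form gap junction channels that let ions and small molecules pass. In adipose tissue these families are known from adipocytes and their progenitors, from vessels, from the mesothelium that covers visceral fat, and from muscle that borders some depots.

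The genes described here are the probe sets of a human expression array whose symbol begins with ITGA, ITGB, CDH, PCDH, CLDN, GJA, GJB, GJC, CTNN, DSC, DSG or DSP, without CDH2 and CDH11. There were 72 of 10273, out of 9780 probe sets with 1 gene symbol. RNA came from epicardial, omental, perirenal, sternal and subcutaneous fat of lambs aged 28 or 7 days, 1 twin of each Bluefaced Leicester cross Swaledale ewe being taken at an age. Each depot and age had 5 arrays, except subcutaneous fat at 7 days with 4, which gave 25 arrays at 28 days and 24 at 7 days. By the study's methods the ewes had a standard diet or the same diet with canola oil, and the arrays of a depot came from different animals. All titles carry the letter C, which the labels do not explain, and no label names the diet or sex. The number that ends a title recurs across depots, but 8 numbers occur at 28 days and 7 at 7 days where the methods describe 5 animals, so it was not fixed whether it names the animal. Depot contrasts and F tests whose call ended when that number was fitted as a block are given with the blocked p. Each number occurs at 1 age only, so changes with age within a depot could not be fitted with it as a fixed block. No blocked p is given for them. By the study's methods the lambs of both ages were twins from the same ewes. The fits for age and its interaction with depot did not take this pairing into account. Letters stand for replicates: H to O are 28-day arrays and A to G are 7-day arrays. By the study's methods a larger mass of tissue was extracted at 28 days, so age and extracted mass cannot be told apart.

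All values are log2 signals on which 1 unit is a doubling, and differences are in log2 units with their standard error (SE). Over the whole table values ran from 2.49 to 14.04, and 82.7% lay below 4. Sternal arrays at 28 days were lower over all probe sets, averaging 3.27, while the other depots averaged 3.40 to 3.42 at that age. Of the adipocyte markers, FABP4 (fatty acid binding protein) averaged 2.65 and LPL (lipoprotein lipase) 2.88, close to the lowest signal, whereas the fatty acid transporter CD36 averaged 9.40 and the triglyceride synthesis enzyme DGAT2 9.73. The array was designed on human transcripts, and weak binding of sheep RNA and low expression cannot be told apart here. In bulk tissue, fewer cells of a type and less RNA per cell cannot be told apart either. The muscle enzyme gene CKM stood above 4 on 9 sternal and subcutaneous arrays. At 7 days these were sternal D and subcutaneous A, E and G. At 28 days they were sternal J, N and O and subcutaneous J and M. Results that rest on them are also given without them. That leaves sternal B, E, F and G and subcutaneous F at 7 days. At 28 days it leaves sternal I and M and subcutaneous H, I and N.

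Most of the 72 probe sets lay near the lowest signal. A group mean of at least 4 was reached by 10 of them (13.9%, against 21.3% of all probe sets), and 62 stayed below 4 in all 10 groups. One exact value (within 0.001) recurred on 25 or more arrays for 41 of the 72. The 10 were PCDH7, PCDH9, PCDH18, GJA1 (the main gap junction protein of heart and many other tissues), CLDN15 (a claudin that forms cation pores), CTNNB1 (beta-catenin, which links cadherins to alpha-catenin and also carries WNT signals), ITGB1 (the beta chain shared by most matrix-binding integrins), and ITGB1BP1, ITGB1BP2 and CTNNBL1. The last 3 are no adhesion receptors: ITGB1BP1 and ITGB1BP2 are cytoplasmic proteins that bind the tail of the beta-1 chain, and CTNNBL1 is a nuclear protein of the splicing machinery named after its likeness to beta-catenin.

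By family there were 9 integrin alpha chains, 4 integrin beta chains, 9 cadherins, 19 protocadherins, 4 catenins, 8 claudins, 5 connexins and 14 other genes whose symbols begin with these letters. The 14 include the cadherin-related CDHR1 and CDHR2, which are not counted with the 9 cadherins, and DSCAML1, DSCC1, DSCR10 and DSPP. No desmosomal cadherin or desmoplakin was among the 72. The highest means were 7.52 for PCDH7, 6.22 for GJA1 and 5.18 for CLDN15, followed by 4.79 for CTNNBL1 and 4.62 for CTNNB1. CLDN15 repeated the single value 5.17 on 29 arrays. No alpha chain averaged above 3.37 (ITGA6) and none of the 9 cadherins above 3.27 (CDH24). Levels of different genes were read by different probes, so this order describes signal and not transcript number. A sheep gene of the same symbol stands in the sheep RefSeq annotation (ARS-UI_Ramb_v3.0) for 58 of the 72; of the 14 without one, 10 are clustered protocadherins or their pseudogenes. The probe sets of ITGB1, ITGB8, GJA3, PCDHB3 and PCDHB18P carry the suffix that marks probes shared with other transcripts, so their values are uncertain as to gene.

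**Figure D1:**
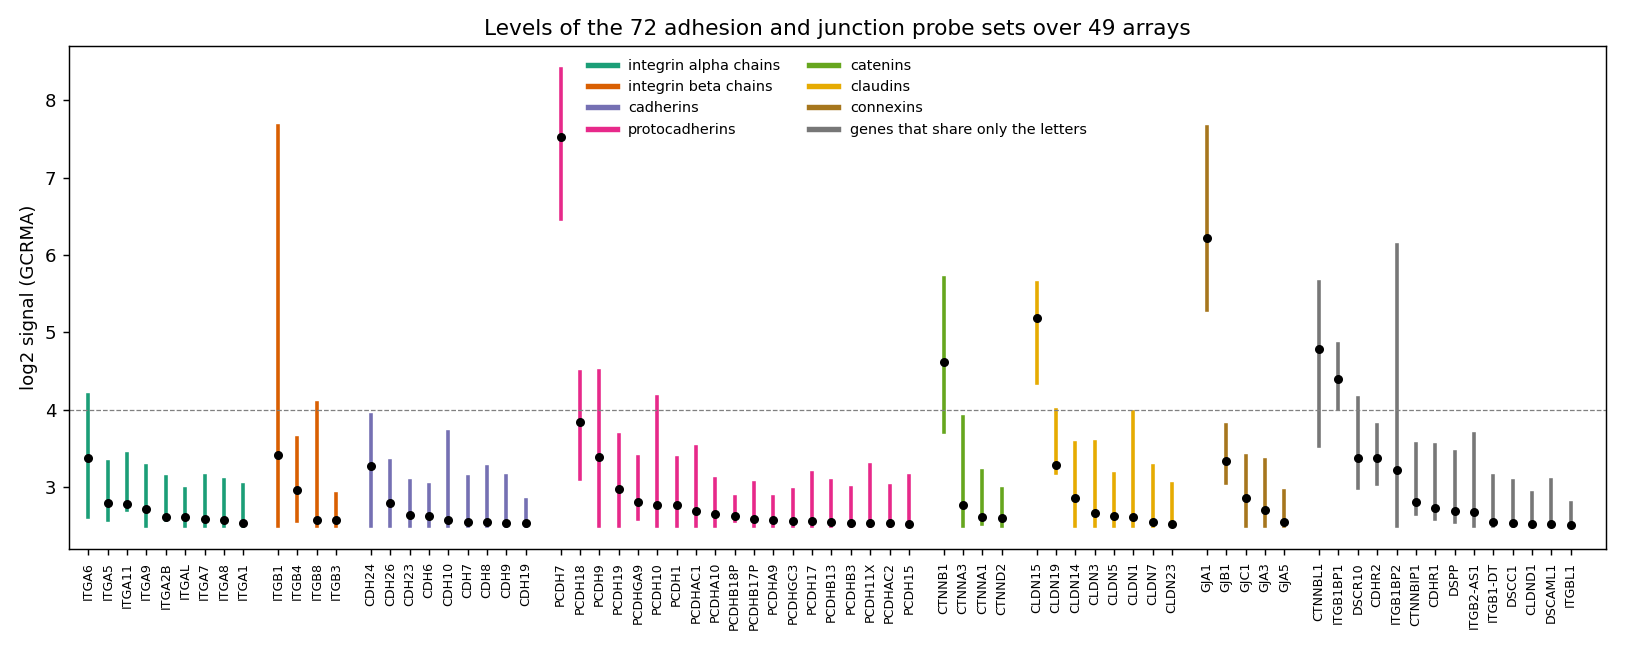
Level of each of the 72 probe sets as log2 signal, grouped by family; dots are means over 49 arrays, bars run from the lowest to the highest array, and the dashed line is at 4. PCDH7, GJA1 and CLDN15 stand highest, and ITGB1 and ITGB1BP2 have the widest ranges for their low means.

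The first question was which of these genes differed between depots at one age. By limma's F test with Benjamini-Hochberg adjustment over all probe sets, 8 of 72 (11.1%) were called at 7 days at an adjusted p of at most 0.05, where 8.16% of all probe sets were called. At 28 days 10 of 72 (13.9%) were called, where 20.0% of all were. The shares were thus near or below the background. CDH24, CTNNBL1, ITGB1 and PCDH10 were called at both ages, CTNNA3, ITGAL, ITGB1BP2 and PCDH7 at 7 days only, and CLDN1, CLDN3, GJC1, ITGA9, PCDH19 and PCDH9 at 28 days only. That a gene was called at one age only does not show that its depot pattern differed between ages. For 46 of the 72, no F test, depot contrast or age contrast was called.

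Set against the mean of the other 4 depots at 7 days, epicardial fat had 7 members called, where 4.07% of all probe sets were. Perirenal fat had 2 (5.11% of all), sternal fat 1 (1.20%), subcutaneous fat 1 (1.53%) and omental fat 0 (1.54%). In omental fat 4 members had an unadjusted limma p below 0.05. At 28 days the counts were 2 in epicardial fat (3.24% of all called), 4 in omental fat (5.12%), 1 in perirenal fat (3.36%), 6 in sternal fat (20.1%) and 3 in subcutaneous fat (3.04%). Of these 27 calls, 1 had no overlap between the depot's arrays and all others of its age. The share without overlap among all called probe sets was not computed. Over both ages the members' median difference lay between -0.05 and 0.02 in every depot, and that of all probe sets between -0.07 and 0.02. Of the 11 calls at 7 days 9 were higher and 2 lower in the depot, and 6 higher and 3 lower after quantile normalization. Of all called probe sets at 7 days, 344 were higher and 74 lower in epicardial fat, and 470 and 55 in perirenal fat. In omental, sternal and subcutaneous fat these numbers were 58 and 100, 28 and 95, and 85 and 72. Of the members' 16 calls at 28 days 11 were higher and 5 lower, and 16 higher and 3 lower after that normalization. Of all called probe sets at 28 days, 281 were higher and 52 lower in epicardial fat, and 489 and 37 in omental fat. In perirenal, sternal and subcutaneous fat these numbers were 295 and 50, 170 and 1891, and 265 and 47.

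ITGB1 (probe set 216178, suffix _x_at) had the widest spread between depots, and it was high in epicardial fat. At 7 days epicardial arrays A, C, D, E and G had 5.41, 5.52, 5.80, 6.02 and 7.56, against a lowest value of 2.49, a median of 2.56 and a highest of 7.66 on the 19 arrays of the other depots. The overlap came from subcutaneous array A alone, with subcutaneous G next at 5.28, and no omental, perirenal or sternal array passed 2.75. The difference was 2.99 ± 0.49 (SE; adjusted p = 0.000532, limma). At 28 days epicardial arrays J, L, N and O had 7.56, 5.86, 3.30 and 6.78 and array I had 2.56, against 2.49, 2.56 and 4.93 as lowest, median and highest of the other 20. Array I thus sat at the median of the other depots. The difference was 2.49 ± 0.52 (adjusted p = 0.00730, limma), and the F test at 28 days was lost without epicardial J, L or O (adjusted p up to 0.0694). With the replicate number as a block the difference was at 0.0677 and the F test at 0.116.

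ITGB1BP2 (melusin, a partner of the beta-1 chain known from striated muscle) behaved likewise at 7 days. Epicardial arrays had 3.94, 5.18, 5.19, 4.19 and 4.43 in the order A, C, D, E and G, against 2.49, 2.84 and 5.82 as lowest, median and highest of the other 19. Subcutaneous array A alone reached into the epicardial range. The difference was 1.60 ± 0.31 (adjusted p = 0.00340, limma). At 28 days the highest values were 6.13 and 4.10 on sternal arrays J and O, above the epicardial range of 2.55 to 3.95, and epicardial fat was not called. Without the 9 arrays high in CKM it was called at 28 days as well.

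CTNNA3 (alpha-T-catenin, the alpha-catenin of the heart's intercalated discs) reached 3.90 on E, 3.91 on G and 3.66 on D at 7 days in epicardial fat. Epicardial A and C had 2.83 and 2.61, inside the range of the other 19 arrays, whose lowest, median and highest were 2.49, 2.61 and 2.94. The difference was 0.73 ± 0.15 (adjusted p = 0.00386, limma). At 28 days epicardial L, N and O had 3.31, 3.51 and 3.46 and arrays I and J 2.62 and 2.61, against 2.55, 2.61 and 3.15 over the other 20 arrays. That difference of 0.45 ± 0.11 (adjusted p = 0.0250, limma) was lost without L, N or O (up to 0.122), without the arrays high in CKM (0.0834) and with the replicate block (0.260).

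Muscle markers were read beside these 3 genes. Of the cardiac muscle list 9 of 15 genes were on the array table. Their mean level ran from 2.98 to 8.41 over epicardial arrays at 28 days and from 6.67 to 8.59 at 7 days. In omental and perirenal fat of both ages it ran from 2.89 to 3.04. It also reached 6.73 on subcutaneous A of 7 days and 6.11 on sternal J of 28 days, so it was not high in epicardial fat alone. MYL2 of that list stood at 10.9 on each of these arrays. The cardiac troponin gene TNNI3 lay at 8.51 or higher on every epicardial array of 7 days and at 2.94 on epicardial array I of 28 days, where ITGB1 was also low, and did not pass 3.15 on any array of another depot. Of the skeletal muscle list 9 of 14 were on the table. Their mean was 8.73 and 7.39 on subcutaneous A and G at 7 days and 8.20 and 5.74 on sternal J and O at 28 days, the arrays with the highest ITGB1 or ITGB1BP2 outside epicardial fat. CTNNA3 stood at 2.61 on both of those sternal arrays. At 7 days it was highest on epicardial D, E and G, where the cardiac list averaged 8.54, 8.21 and 8.59. It was lower on A and C, where the list averaged 6.67 and 7.46. At 28 days it was low on epicardial I and J, where the list averaged 2.98 and 7.87. On L, N and O, where it was higher, the list averaged 7.63, 6.74 and 8.41. Without the 9 sternal and subcutaneous arrays high in CKM, the epicardial difference of ITGB1 was 3.46 at 7 days and 2.63 at 28 days. The part of muscle RNA in the epicardial values of ITGB1, ITGB1BP2 and CTNNA3 was not tested. Over the 10 group means the patterns most like that of ITGB1 among all probe sets were those of ACTN2 (the Z-disc actin crosslinker of striated muscle), HHATL and PDLIM5, with Pearson's r of 0.993, 0.985 and 0.985, given as a description over means that share these arrays.

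**Figure D2:**
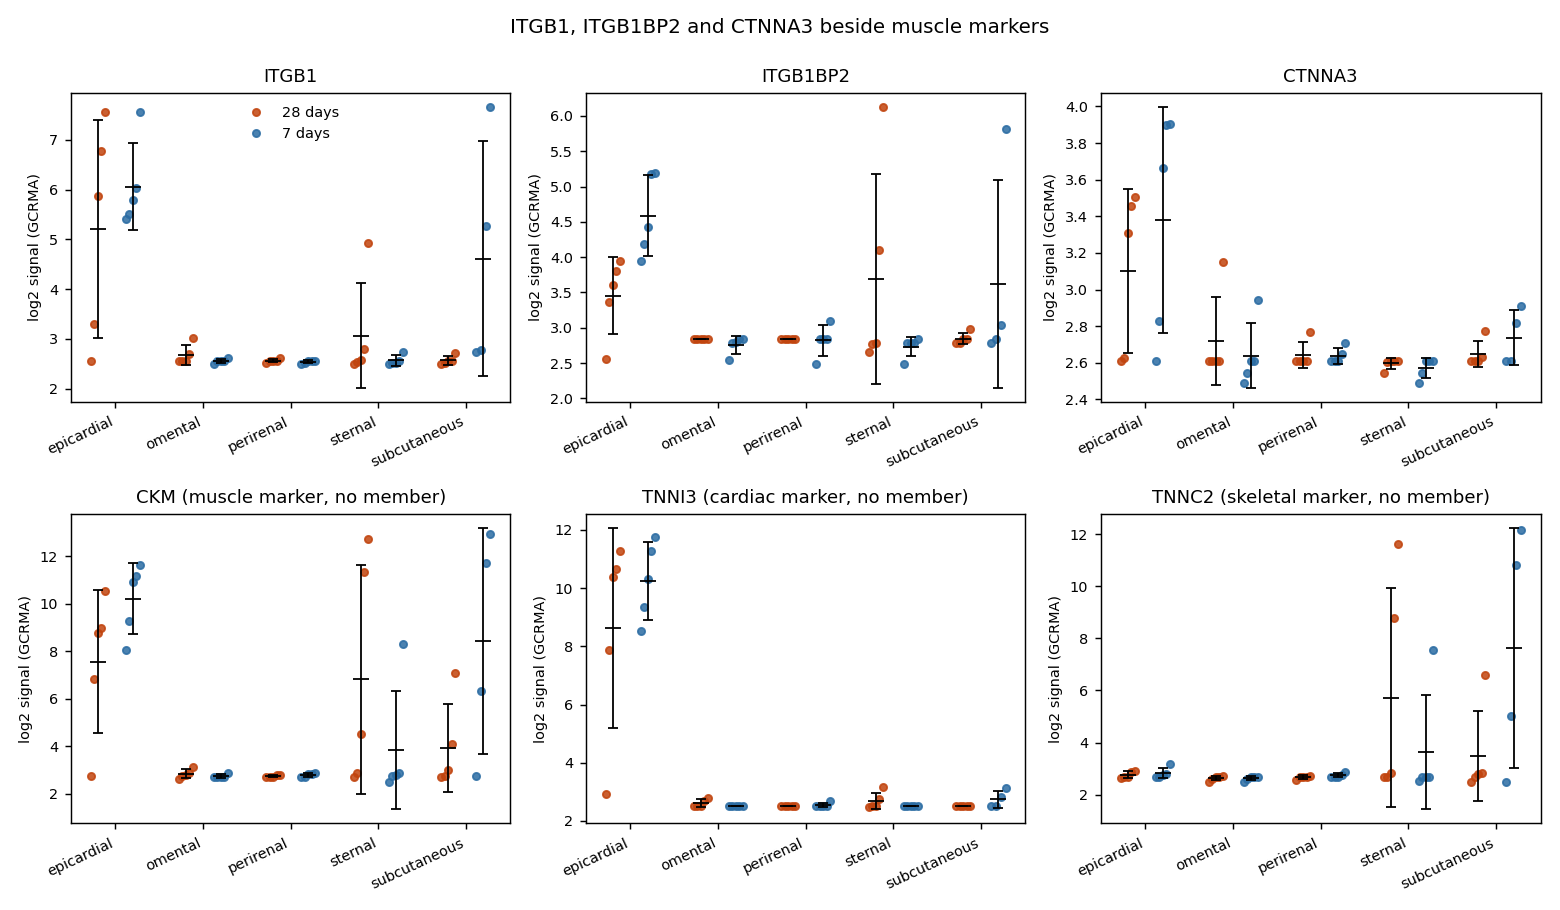
Log2 signal of ITGB1, ITGB1BP2 and CTNNA3 (top) and of 3 muscle markers that are not among the 72 (bottom), each point 1 array, 28 days left of 7 days in each depot, with mean and SD. ITGB1 is high in epicardial fat except arrays I and N of 28 days at 2.56 and 3.30, and subcutaneous A and G of 7 days, at 7.66 and 5.28, are high in CKM and TNNC2 as well.

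The other genes higher in epicardial fat at 7 days were PCDH7, GJA1, CTNNBL1 and PCDH17. On epicardial A, C, D, E and G the cardiac muscle list averaged 6.67, 7.46, 8.54, 8.21 and 8.59. The part of muscle RNA in the epicardial values of these genes was not tested either. PCDH7, a delta protocadherin and the brightest of the 72, had 7.73, 8.40, 8.18, 7.56 and 8.35 on epicardial A, C, D, E and G, against 6.47, 7.11 and 7.62 as lowest, median and highest elsewhere. Only array E lay inside the range of the others, and the difference was 0.90 ± 0.16 (adjusted p = 0.00115, limma). GJA1 had 6.15, 6.45, 6.89, 7.14 and 7.65 on A, C, D, E and G, against 5.33, 6.15 and 6.65 elsewhere, so arrays A and C overlapped. Its difference of 0.71 ± 0.17 (adjusted p = 0.0203, limma) was lost without epicardial G or E (up to 0.117) and after quantile normalization (0.107). PCDH17, another delta protocadherin, differed by 0.24 ± 0.06 with 3.17 on array C as its highest value; the call was lost without epicardial G (0.111), without the arrays high in CKM (0.0827) and with the replicate block (0.0686).

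Among the protocadherins, single-chain relatives of cadherins best known from neurons, PCDH10 (probe set 228635, suffix _at) had the most marked depot pattern at 28 days. Omental arrays I, J, M, N and O had 4.17, 3.60, 3.42, 3.59 and 4.02, against 2.49, 2.61 and 3.42 as lowest, median and highest of the other 20 arrays. The groups touched at one point, where subcutaneous array I had 3.42. The omental difference was 1.02 ± 0.12 (adjusted p = 1.74e-05, limma). Sternal arrays lay between 2.49 and 2.61, which was 0.47 ± 0.12 below the mean of the other depots (adjusted p = 0.00589, limma), and 0.143 without the arrays high in CKM. At 7 days PCDH10 was close to its lowest value everywhere. Sternal fat, at 2.49 to 2.51, was then 0.12 ± 0.03 lower (adjusted p = 0.0200), a call lost without sternal G (0.0675), under the fit over all 49 arrays (0.661), without the arrays high in CKM (0.0774) and with the replicate block (0.0979; F test 0.0929).

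PCDH10 was read beside the mesothelium list, of which 4 of 12 genes were on the table. The mesothelial transcription factor gene WT1 ranged from 4.69 to 7.65 over omental arrays at 28 days and from 3.49 to 6.45 at 7 days, when PCDH10 ranged from 2.61 to 2.68 there. In epicardial fat at 28 days WT1 ranged from 5.03 to 5.81 while PCDH10 ranged from 2.61 to 2.82. KRT8 of that list averaged 3.91 in omental fat at 28 days, its highest group mean, and 3.37 there at 7 days, and was called between depots at 28 days (adjusted p = 0.0285, limma F test). KRT19 and LRRN4, the remaining pair, did not average above 2.69 in any group. The part of mesothelial RNA in the omental values was not tested. The patterns most like that of PCDH10 over the 10 group means were HACD4, ZC3H12D and FXYD2, with r of 0.987, 0.980 and 0.979.

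PCDH9, also a delta protocadherin, was high in subcutaneous fat at 28 days. Subcutaneous arrays H, I, J, M and N had 4.07, 4.49, 4.22, 3.98 and 3.50, against 3.12, 3.37 and 4.06 elsewhere, a difference of 0.56 ± 0.12 (adjusted p = 0.00948, limma) that was at 0.0853 without the arrays high in CKM. Perirenal arrays came next, at 3.52 to 4.06, and overlapped with the subcutaneous ones. Omental fat, at 3.12 to 3.39, was 0.43 ± 0.12 lower (adjusted p = 0.0379, limma), a call lost without any single omental array, without perirenal M or K or without subcutaneous J (up to 0.121), without the arrays high in CKM (0.0998) and with the replicate block (0.0704). PCDH19, called in the F test at 28 days (adjusted p = 0.0342), was highest in omental and subcutaneous fat, at 3.27 ± 0.21 and 3.25 ± 0.29 (SD, n = 5 each), while the other depots averaged 2.92 to 2.99. Leaving out 1 array removed that call in 11 of 25 cases, omental I, J or M, perirenal K, M or N, sternal I, M, N or O, or subcutaneous N (up to 0.0595), and quantile normalization (0.133), leaving out the arrays high in CKM (0.0580) and the replicate block (0.110) removed it.

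**Figure D3:**
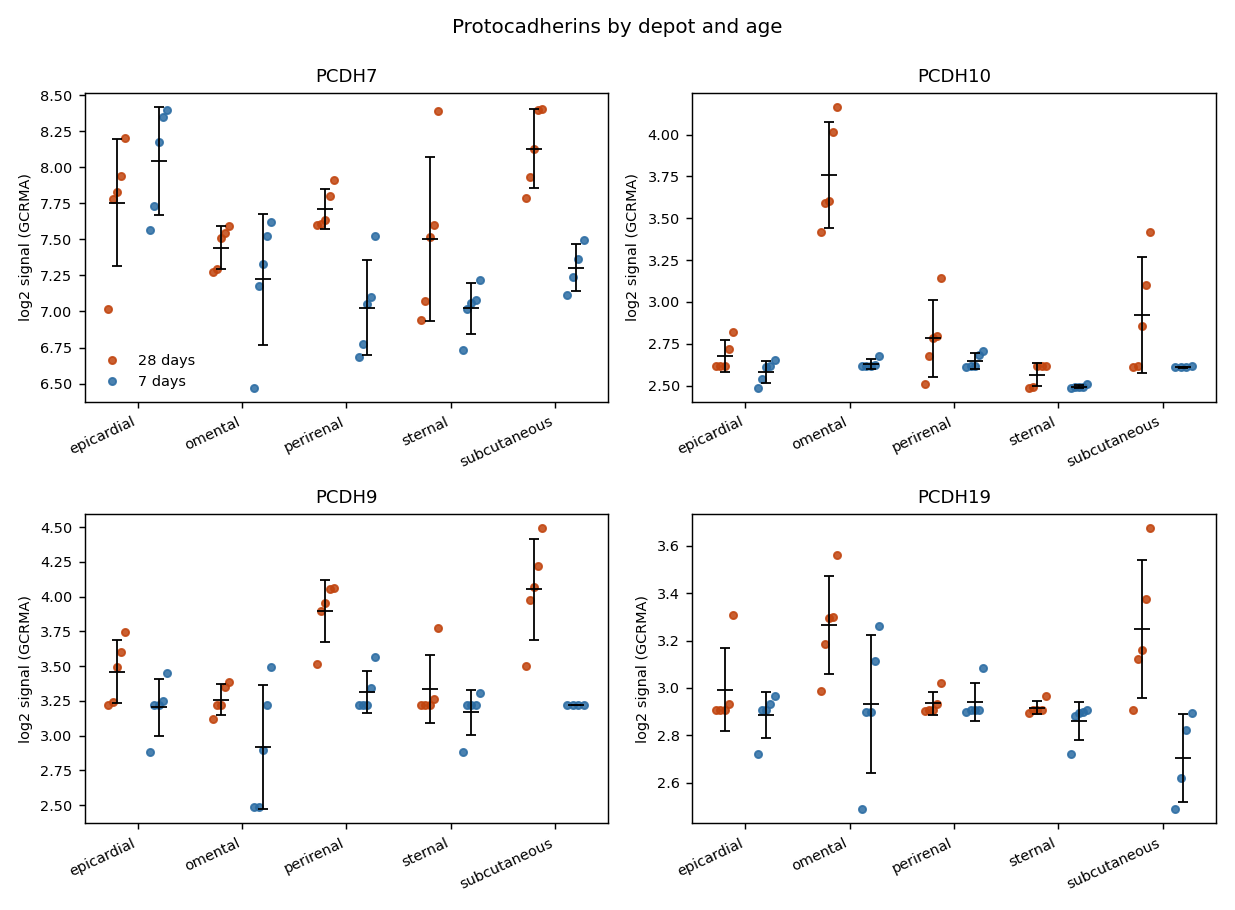
Log2 signal of PCDH7, PCDH10, PCDH9 and PCDH19 on each array, 28 days left of 7 days in each depot, with mean and SD. PCDH10 stands out in omental fat at 28 days (3.42 to 4.17), and PCDH9 is highest in subcutaneous and perirenal fat of that age.

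The one cadherin called between depots was CDH24, a type II cadherin that binds catenins. It took the single value 3.28 on all 10 omental arrays. At 7 days perirenal arrays A, B, C, D and G had 3.48, 3.54, 3.61, 3.30 and 3.93, against 2.49, 3.28 and 3.55 elsewhere, a difference of 0.39 ± 0.09 (adjusted p = 0.00974, limma; 0.0978 after quantile normalization). Subcutaneous arrays A, E, F and G had 2.78, 3.28, 2.49 and 2.78, against 3.15, 3.28 and 3.93 elsewhere, which was 0.54 ± 0.09 lower (adjusted p = 0.00499, limma). At 28 days the low depot was sternal fat, at 2.78 on arrays I, M and O, 2.80 on J and 3.28 on N, against 3.28, 3.28 and 3.87 on the other 20 arrays. Array N alone met the others. The difference of -0.48 ± 0.08 (adjusted p = 0.000294, limma) was -0.59 without the arrays high in CKM. That step took out array N and left sternal I and M, both at 2.78. The F test of that age was at 0.0652 after quantile normalization.

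CTNNBL1, the splicing protein, gave the one depot contrast without overlap. Sternal arrays I, J, M, N and O had 4.56, 3.53, 4.67, 4.58 and 4.24 at 28 days, against 4.85, 5.19 and 5.65 as lowest, median and highest elsewhere. The difference was -0.90 ± 0.15 (adjusted p = 0.000180, limma). At 7 days epicardial arrays A, C, D, E and G had 4.99, 5.60, 4.73, 4.99 and 5.27, against 3.56, 4.32 and 4.95 elsewhere, a difference of 0.74 ± 0.16 (adjusted p = 0.00612, limma). Sternal arrays were low over all probe sets at 28 days, and after quantile normalization the sternal difference was -0.47 (adjusted p = 0.0615), and the F tests were at 0.129 at 7 days and 0.233 at 28 days. Without the arrays high in CKM the F tests were at 0.0502 and 0.168, while both contrasts stayed called. With the replicate block the F test at 7 days was at 0.0728.

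Of the claudins, CLDN1 (a barrier-forming claudin of many epithelia) was higher in omental fat at 28 days. Omental arrays I, J, M, N and O had 3.37, 2.70, 3.96, 2.80 and 2.99, against 2.49, 2.49 and 2.96 elsewhere. Arrays J and N overlapped with epicardial and sternal ones, and the difference was 0.59 ± 0.13 (adjusted p = 0.00710, limma). The F test was lost without omental I (0.0536), without the arrays high in CKM (0.0616) and with the replicate block (0.0609). CLDN3, another barrier claudin, had 3.16, 2.55, 3.58, 3.26 and 2.59 on subcutaneous H, I, J, M and N at 28 days, against 2.49, 2.55 and 2.88 elsewhere. Its difference of 0.44 ± 0.10 (adjusted p = 0.0200, limma) was lost without H, J or M (up to 0.105) and with the replicate block (0.135; F test 0.193), and was 0.19 (0.454) without the arrays high in CKM. Of the epithelium list of 8 genes the table held CLDN3 and CLDN7, and CLDN7 averaged 2.56 in subcutaneous fat at 28 days and 2.51 to 2.69 in the other depots (adjusted p = 0.692, limma F test). CLDN15 and the endothelial CLDN5 were called in no test.

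Of the connexins, GJC1, a connexin of the heart's conduction system and of vessel walls, was called in perirenal fat at 28 days. Perirenal arrays I, J, K, M and N had 3.08, 3.40, 2.83, 3.20 and 3.14, against 2.83, 2.83 and 3.27 elsewhere. Array K was at the 2.83 of all sternal and subcutaneous arrays, and I, M and N lay inside the omental range of 2.91 to 3.27. The difference of 0.23 ± 0.06 (adjusted p = 0.0238, limma) was lost without J, M or N (up to 0.117) and without the arrays high in CKM (0.0932).

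Integrin alpha chains had small differences near the lowest signal. ITGA9, which pairs with the beta-1 chain to bind tenascin and other ligands, had 2.61, 3.26, 3.26, 2.92 and 3.11 on omental I, J, M, N and O at 28 days, against 2.49, 2.61 and 3.01 elsewhere. The difference of 0.36 ± 0.09 (adjusted p = 0.0179, limma) was lost without J, M or O (up to 0.0797). Its lower level in sternal fat, by -0.25 ± 0.09 (adjusted p = 0.0493), was lost without any 1 of 18 of the 25 arrays (up to 0.114), after quantile normalization (0.150), without the arrays high in CKM (0.339) and with the replicate block (0.0556). ITGAL, the alpha chain of the leukocyte integrin LFA-1, was at 2.60 to 2.81 on perirenal arrays at 7 days, against 2.49, 2.55 and 2.62 elsewhere. It differed by 0.14 ± 0.03 (adjusted p = 0.00779, limma), at 0.0850 after quantile normalization and 0.120 under the fit over all 49 arrays. The leukocyte list had 3 of 12 genes on the table, with a mean of 2.75 to 2.89 over these arrays and 2.71 to 2.95 over the other arrays of 7 days, and its defining marker PTPRC was at 2.49 to 2.63, at or near the lowest signal. The part of leukocyte RNA was not tested.

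ITGA2B (the platelet fibrinogen receptor chain) had 2.63, 2.83, 2.57, 3.12 and 2.73 on subcutaneous H, I, J, M and N at 28 days, against 2.57 to 2.63 elsewhere. It was 0.20 ± 0.05 higher (adjusted p = 0.0234, limma; up to 0.0658 without subcutaneous I or M, and 0.0565 with the replicate block). In sternal fat at 28 days ITGA11 (a collagen receptor chain) and PCDHGC3 were higher by 0.26 ± 0.08 and 0.15 ± 0.05 (adjusted p = 0.0281 and 0.0326, limma). ITGA11 was lost without sternal J, N or O (up to 0.152) and PCDHGC3 without N or O (up to 0.182), and with the replicate block they were at 0.0593 and 0.0813. These are the 3 sternal arrays high in CKM, and without all arrays high in CKM the differences were -0.05 and -0.01.

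**Figure D4:**
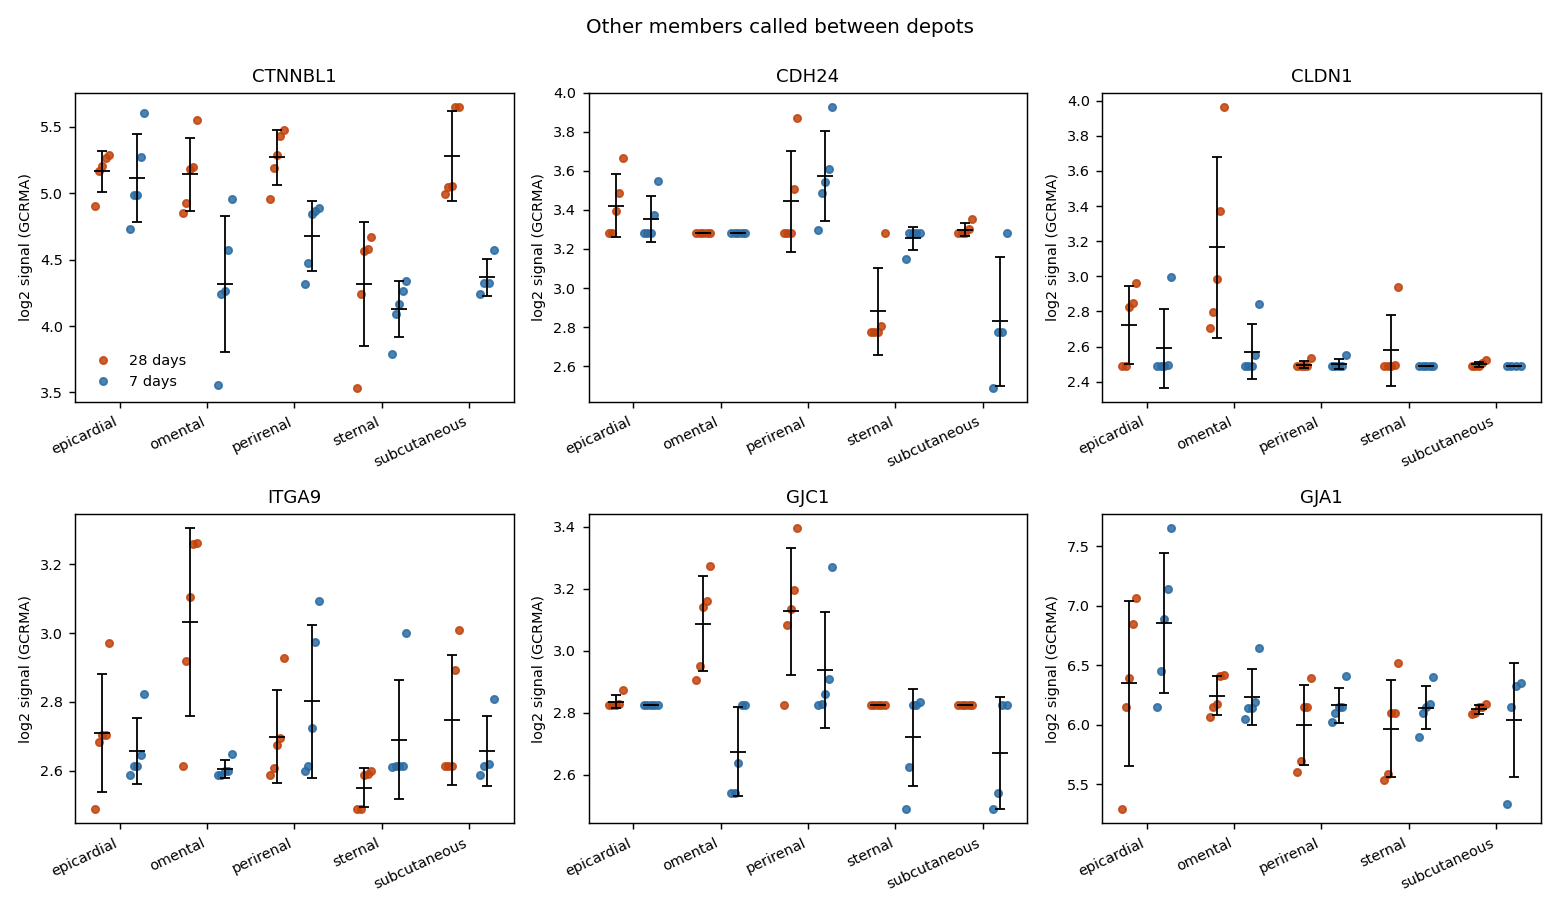
Log2 signal of CTNNBL1, CDH24, CLDN1, ITGA9, GJC1 and GJA1 on each array, 28 days left of 7 days in each depot, with mean and SD. CTNNBL1 is lowest in sternal fat at 28 days (3.53 to 4.67), and several genes repeat 1 value on many arrays, such as 3.28 for CDH24.

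The second question was which of these genes changed between 7 and 28 days within a depot. Of 72, 7 were called in omental fat (14.6% of all probe sets called), 4 in perirenal fat (9.32%), 3 in sternal fat (6.37%), 9 in subcutaneous fat (9.25%) and 0 in epicardial fat (5.84%). In epicardial fat 6 had an unadjusted limma p below 0.05. The 23 calls fell on 17 genes, with 18 higher and 5 lower at 28 days, or 10 higher and 5 lower after quantile normalization. Of all called probe sets, 1391 were higher and 106 lower at 28 days in omental fat, and 789 and 161 in subcutaneous fat. In perirenal, sternal and epicardial fat these numbers were 640 and 317, 254 and 400, and 433 and 167. Arrays of both ages did not overlap in 11 of the 23 calls on the 72. How often this held among all called probe sets was not computed, so the count is no trait of these genes. The median over the 72 ranged from 0.00 in perirenal fat to 0.04 in omental fat, and that over all probe sets from 0.00 in sternal fat to 0.06 in omental fat.

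In omental fat all 7 rose, as did 1391 of all 1497 probe sets called there. PCDH10 had 4.17, 3.60, 3.42, 3.59 and 4.02 at 28 days, against 2.61 to 2.68 at 7 days, with no overlap. The change was 1.13 ± 0.11 (adjusted p = 1.61e-09, limma). GJC1 had 2.91 to 3.27 at 28 days, against 2.54 to 2.83 at 7 days, with no overlap and a change of 0.41 ± 0.08 (adjusted p = 0.000477). ITGA5, the fibronectin receptor chain, had 3.31, 2.82, 2.86, 2.99 and 2.98 at 28 days, against 2.57 to 2.67 at 7 days, again apart (0.38 ± 0.09, adjusted p = 0.00317; 0.0665 after quantile normalization). CTNNBL1 changed by 0.82 ± 0.19, with 4.85 to 5.55 at 28 days and 3.56 to 4.95 at 7 days (adjusted p = 0.00235; 0.194 after quantile normalization). CLDN1 (0.59 ± 0.13), ITGA9 (0.43 ± 0.10) and PCDH19 (0.33 ± 0.11) overlapped between ages. PCDH19 was lost without omental C, D or E of 7 days or I, J or M of 28 days (up to 0.170) and after quantile normalization (0.487). Within the omental arrays alone, CLDN1, CTNNBL1, ITGA9 and PCDH19 were not called (adjusted p = 0.139, 0.0690, 0.0516 and 0.203), and the other 3 were.

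In subcutaneous fat CTNNBL1, PCDH7, PCDH9, PCDH19, CDH24 and CDHR2 rose. PCDH9 had 4.07, 4.49, 4.22, 3.98 and 3.50 at 28 days, against 3.22 on all 4 arrays at 7 days, with no overlap (0.83 ± 0.16, adjusted p = 0.000619, limma). PCDH7 had 7.79, 8.39, 8.41, 8.13 and 7.93 at 28 days, against 7.24, 7.49, 7.11 and 7.37 at 7 days, also apart (0.83 ± 0.22, adjusted p = 0.0130). CTNNBL1 was at 4.99 to 5.65 at 28 days and 4.24 to 4.57 at 7 days (0.91 ± 0.21, adjusted p = 0.00310; 0.0662 after quantile normalization). PCDH19 was at 2.91 to 3.68 at 28 days and 2.49 to 2.89 at 7 days (0.54 ± 0.12, adjusted p = 0.00172). CDH24 changed by 0.47 ± 0.12 with 3.28 on arrays of both ages, and was lost without subcutaneous F of 7 days (0.0564) and after quantile normalization (0.0742). CDHR2, a brush border cadherin, changed by 0.28 ± 0.08 (adjusted p = 0.0225), lost without subcutaneous A, E or G of 7 days or M of 28 days (up to 0.0828) and after quantile normalization (0.744). At 7 days 3 of the 4 subcutaneous arrays were high in CKM. Without the arrays high in CKM, which leaves 1 array of 7 days, assumed to vary like the other groups, PCDH9 was at 0.80 (0.131), CTNNBL1 at 0.99 (0.0995), PCDH19 at 0.39 (0.322), PCDH7 at 0.54 (0.662) and CDHR2 at 0.11 (1.00), and CDH24 stayed called. Fitted on subcutaneous arrays alone, PCDH7 kept its call and the other 5 did not (adjusted p from 0.0525 to 0.178).

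The 3 genes that fell in subcutaneous fat were ITGB1, ITGA1 (a collagen receptor chain) and CDH9 (a type II cadherin). ITGB1 had 2.56, 2.52, 2.71, 2.49 and 2.56 at 28 days, against 7.66, 5.28, 2.74 and 2.78 on arrays A, G, E and F of 7 days. There was no overlap, yet the change of -2.05 ± 0.68 (adjusted p = 0.0490, limma) was lost without any 1 of 41 of the 49 arrays (up to 0.400), and was -0.23 (1.00) without the arrays high in CKM. ITGA1 (-0.20 ± 0.07) was lost without any 1 of 19 arrays (up to 0.431) and was 0 without the arrays high in CKM. CDH9 (-0.29 ± 0.08, adjusted p = 0.0131) had 3.04 and 3.14 on arrays F and G of 7 days and 2.49 on A and E, against 2.49 to 2.51 at 28 days, and was lost without F or G (up to 0.155). None of the 3 was called on subcutaneous arrays alone (0.340 for ITGB1, 0.388 for ITGA1 and 0.358 for CDH9).

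In perirenal fat PCDHAC1, PCDH9, PCDH7 and CTNNBL1 rose. PCDHAC1, a clustered protocadherin, had 3.28, 3.51, 2.90, 3.03 and 3.16 on I, J, K, M and N at 28 days, against 2.56 to 2.67 at 7 days, with no overlap (0.59 ± 0.13, adjusted p = 0.00102, limma). PCDH9 had 3.52 to 4.06 at 28 days, against 3.22 to 3.56 at 7 days, which overlapped between 1 array of each age (0.58 ± 0.15, adjusted p = 0.00851). PCDH7 (7.60 to 7.91 at 28 days, 6.69 to 7.53 at 7 days) and CTNNBL1 (4.96 to 5.48 at 28 days, 4.32 to 4.89 at 7 days) did not overlap, with changes of 0.68 ± 0.21 and 0.59 ± 0.19 (adjusted p = 0.0293 and 0.0448). PCDH7 was lost without perirenal A or D of 7 days or I or J of 28 days (up to 0.101), and CTNNBL1 without A or G of 7 days or J, K, M or N of 28 days (up to 0.149). After quantile normalization they were at 0.0933 and 0.131. In sternal fat CDH24 fell by 0.37 ± 0.11 and ITGB8 (partner of the alpha-V chain) by 0.53 ± 0.14. CDH24 was lost without sternal D, E, F or G of 7 days or I, J, M or O of 28 days (up to 0.0725). ITGB8 rested on values of 3.44, 4.08 and 3.01 on sternal D, F and G of 7 days and was lost without D or F (up to 0.0616) and without the arrays high in CKM (0.497). CDH8 rose by 0.24 ± 0.08 in a call lost without any 1 of 42 of the 49 arrays (up to 0.322) and without the arrays high in CKM (0.577). None of the 3 sternal calls held on sternal arrays alone (0.140 for CDH24, 0.614 for ITGB8 and 0.619 for CDH8), whereas the 4 perirenal ones held on perirenal arrays.

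**Figure D5:**
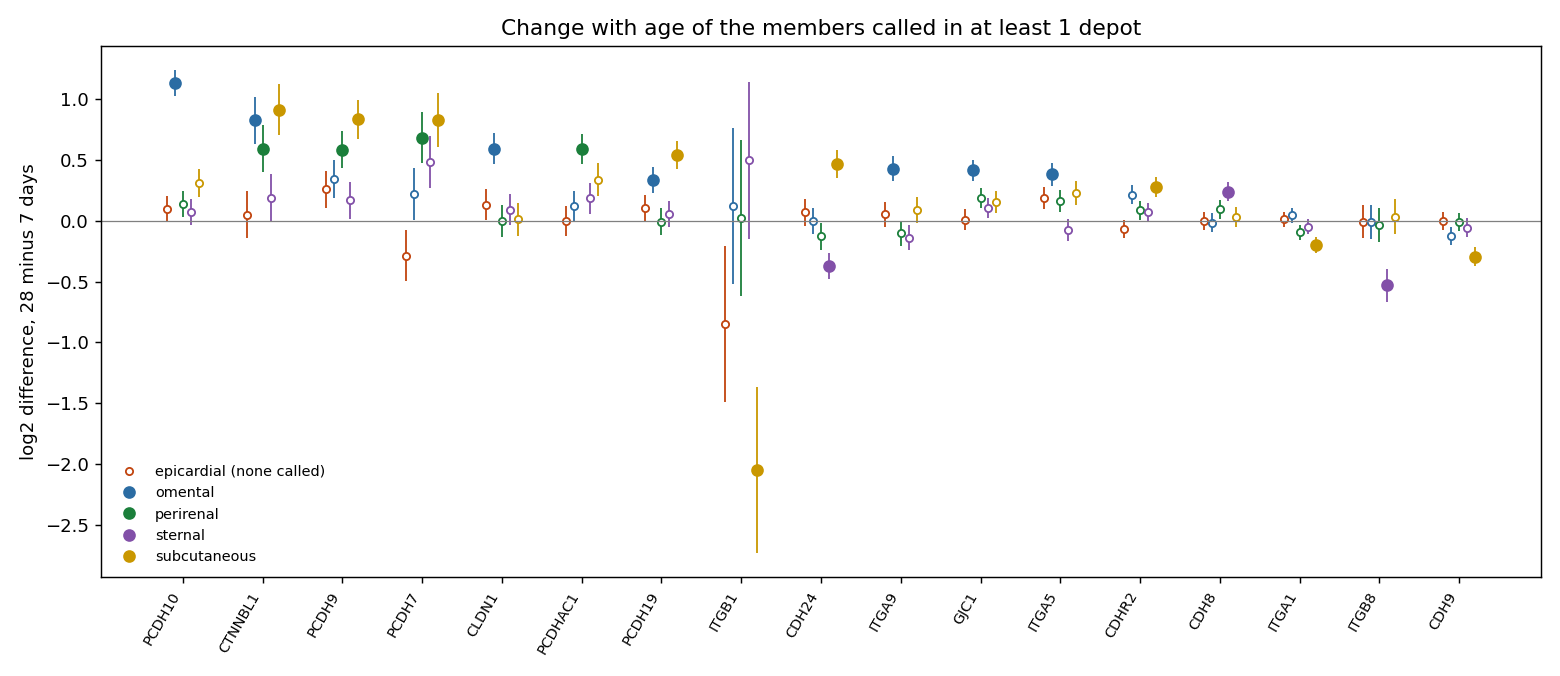
Difference in log2 signal between 28 and 7 days for the 17 genes called in at least 1 depot; filled points are called, open points are not, and bars are SE. PCDH10 in omental fat has a change of 1.13, and ITGB1 in subcutaneous fat one of -2.05 with a wide error.

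Whether the change with age differed between depots was tested by limma's F test of the interaction. PCDH10 (adjusted p = 1.19e-05), CDH24 (0.00426) and ITGA9 (0.0345) were called, 3 of 72, where 9.17% of all probe sets were. PCDH10 changed by 1.13 ± 0.11 in omental fat, 0.31 ± 0.12 in subcutaneous fat, 0.14 ± 0.11 in perirenal fat, 0.10 ± 0.11 in epicardial fat and 0.07 ± 0.11 in sternal fat. CDH24 changed by 0.47 ± 0.12 in subcutaneous fat and by -0.37 ± 0.11 in sternal fat. ITGA9 changed by 0.43 ± 0.10 in omental fat and by -0.14 ± 0.10 in sternal fat. The call of ITGA9 was lost without omental A, C, D or G of 7 days or J, M or O of 28 days (up to 0.0867), after quantile normalization (0.122) and without the arrays high in CKM (0.0881). For the other 14 genes that changed in some depot, no difference between depots was called in this fit over all probe sets.

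The proteins that work with these receptors were read from lists of partners. Of 24 focal adhesion partners on the table, ITGB1BP2 among them, 4 were called between depots at 7 days, where 8.16% of all probe sets were, and 8 at 28 days, where 20.0% were. VCL (vinculin) was higher in epicardial fat by 0.79 ± 0.12 at 7 days and 0.74 ± 0.17 at 28 days (adjusted p = 0.000335 and 0.0134, limma). ACTN2 was higher there by 2.83 ± 0.48 and 2.71 ± 0.50 (0.000762 and 0.00225, limma). In subcutaneous fat at 7 days and sternal fat at 28 days ACTN2 averaged 4.45 and 3.31, and VCL 2.67 and 2.70. The part of muscle RNA in the values of VCL and ACTN2 was not tested. PXN (paxillin) and CAV1 (caveolin-1) were higher in omental fat at 28 days by 0.49 ± 0.10 and 0.45 ± 0.11 (0.00337 and 0.0156). FERMT2 (kindlin-2, an integrin activator) was 0.54 ± 0.08 higher in subcutaneous and 0.42 ± 0.08 lower in epicardial fat at 28 days. With age, 4 of the 24 rose in omental fat and 0 fell, with a median of 0.06 over the list and 0.06 over all probe sets. TLN1 (talin-1) rose by 0.76 ± 0.12 in perirenal and 0.49 ± 0.12 in omental fat (adjusted p = 2.1e-05 and 0.00391).

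Of 9 adherens junction and desmosome partners, 1 was called between depots at 7 days and 3 at 28 days, against the same shares of all probe sets. PKP4 (a plakophilin of the p120-catenin family) and the nectins NECTIN1 and NECTIN2 were lower in sternal fat at 28 days, by -1.07 ± 0.17, -0.54 ± 0.11 and -0.34 ± 0.10. In that contrast 20.1% of all probe sets were called, 1891 of 2061 of them lower. All 3 rose with age in omental fat, where 14.6% of all probe sets were called, PKP4 by 1.33 ± 0.24 (adjusted p = 9.9e-05, limma). Of 12 tight junction partners, 0 were called between depots by limma at 7 days, where 0 had an unadjusted p below 0.05 either. TJP1 and PARD3 were called at 28 days, where 20.0% of all probe sets were. TJP1 (ZO-1, which ties claudins to actin) was 0.68 ± 0.10 higher in perirenal and 0.47 ± 0.10 lower in subcutaneous fat, and PARD3, a polarity protein, was 0.70 ± 0.13 higher in subcutaneous and 0.64 ± 0.13 lower in sternal fat. Of 5 laminin chains, ligands of integrins, the F test called LAMC1 at 7 days (adjusted p = 0.0387, limma), where 8.16% of all probe sets were called. It called LAMA2 and LAMA4 at 28 days, where 20.0% were. LAMA2 was higher in epicardial fat at both ages (0.77 ± 0.20 at 7 days and 0.53 ± 0.11 at 28 days). LAMA4 was 0.63 ± 0.11 lower in sternal fat at 28 days.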

How the data were processed

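Per the labels and the study's methods, labelled RNA of each depot was read on the human U133 Plus 2 expression array of Affymetrix. The authors made the deposited log2 values with GCRMA in the affy package (background correction, normalization and summary per probe set); their versions are not stated in those sources. Genes were named from the platform annotation, in which 6 probe sets carry several symbols and 487 none.

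The deposited log2 values were fitted with limma 3.58.1 under R 4.3.3: a model per age over 5 depots, a model over all 49 arrays for age and its interaction with depot, empirical Bayes moderation and Benjamini-Hochberg adjustment over 10273 probe sets within a comparison. No array pair correlated above 0.990, so none was taken as a repeat. For arrays, their number limits the precision. Same-numbered arrays of different depots deviated together weakly (median correlation 0.046 over 33 pairs at 7 days and 0.057 over 39 pairs at 28 days, against -0.011 and -0.009 between arrays of different number).

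The genes and lists were chosen with earlier results of these data known. By rule, the text gives array values for the 14 genes called in an F test, the 8 largest changes with age and the called interactions, names other called genes with their differences, takes up to 4 called genes of a partner list in a comparison, and gives likeness for the gene with the widest depot range. Array values of GJA1, ITGA2B, ITGA5, CDH9 and ITGB8, and the likeness of PCDH10, fall outside that rule and were chosen after their values were seen. Alternatives were the replicate number as a block, quantile normalization, a filter at a mean of 4, other arrays in the fit, leaving out 1 array and, chosen after seeing the data, leaving out 9 arrays with CKM above 4. Sequences were not analysed here.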

Additional observations from a re-analysis of the deposited data

Results flagged for a closer look

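Within groups of 4 or 5 arrays, 12 cases had 1 array set apart from the rest (its gap to the nearest array, over the range of the group, passed Dixon's critical value and the range was at least 0.5). Of 260 groups of the 26 genes tested, 85 more passed with a smaller range, where the remaining arrays mostly repeat 1 low value. The critical value is set to flag about 1 in 20 groups of normally distributed values. That rate does not hold for groups with repeated values, some of the 12 cases among them. ITGB1 was at 7.56 on epicardial G of 7 days (others 5.41 to 6.02) and at 4.93 on sternal J of 28 days (others 2.49 to 2.79). ITGB1BP2 was at 5.82 on subcutaneous A of 7 days (others 2.78 to 3.03). Sternal J and subcutaneous A are among the arrays high in CKM, at 12.7 and 12.9. PCDHAC1 was also set apart on sternal J, at 3.47 (others 2.56 to 2.57), and PCDH9 on sternal O of 28 days, at 3.77 (others 3.22 to 3.26). CDH24 was at 3.28 on sternal N of 28 days (others 2.78 to 2.80).

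Single arrays were set apart for CTNNA3 (3.15 on omental J of 28 days, others 2.61), PCDH17 (2.99 on perirenal J of 28 days, others 2.49 to 2.50), CLDN1 (2.995 on epicardial C of 7 days, others 2.49), GJA1 (6.65 on omental E of 7 days, others 6.05 to 6.19), ITGA2B (3.08 on epicardial D of 7 days, others 2.57) and ITGA5 (3.27 on sternal E of 7 days, others 2.61 to 2.78).

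The change with age differed between depots by the interaction test for PCDH10 (adjusted p = 1.19e-05, limma), CDH24 (0.00426) and ITGA9 (0.0345). CDH24 was the only one of the 72 called in opposite directions with age, higher in subcutaneous and lower in sternal fat at 28 days.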

How the results depend on the processing

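Counts of called genes over the 6 sets of tests (F test at 7 days, F test at 28 days, depot against the others at 7 days and at 28 days, age within depot, interaction) were 8, 10, 11, 16, 23 and 3. Over single arrays left out they ranged from 6 to 9, 8 to 11, 9 to 12, 13 to 19, 18 to 25 and 2 to 5. No left-out array removed 27 of the 50 contrast calls and 12 of the 21 F test calls. Among F test calls at 7 days not described above, CTNNA3 was lost without epicardial D, E or G (up to 0.0940), PCDH10 without sternal D, F or G (up to 0.0534) and ITGAL without any 1 of 12 arrays (up to 0.131). At 28 days ITGA9 was lost without omental J, M or O or sternal I or J (up to 0.0950) and CLDN3 without any 1 of 13 arrays (up to 0.127). Both F tests were also lost without the arrays high in CKM (0.127 for ITGA9 and 0.400 for CLDN3) and after quantile normalization (0.0718 and 0.0678).

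Dropping probe sets that average below 4 left 6 of the 72 and gave 3, 2, 4, 2, 5 and 2 calls. Of all probe sets left, the F tests called 689 of 1700 at 7 days and 1225 of 1829 at 28 days, and the interaction 727 of 1752. The filter also added calls. CTNNBL1 in sternal fat at 7 days and PCDH7 in subcutaneous fat at 28 days were new. Both interaction calls were new too, because PCDH10, CDH24 and ITGA9 were dropped. Fitting age within each depot's own arrays gave 9 calls for 23, with fewer samples in each fit, and quantile normalization gave 15; their cause was not tested. Without the 9 arrays high in CKM the interaction gave 7 calls, and of 71 single calls 28 were lost and 2 reversed (ITGA11 at -0.0495 and PCDHGC3 at -0.0125, both sternal at 28 days).

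The study's methods state no block, and the labels do not say that a replicate number is an animal, so the number was kept out of the fits reported. Of the 39 same-numbered pairs at 28 days 12 correlated above 0.1, and of 211 other pairs 12 did. With the replicate number as a fixed block, depot contrasts at 28 days gave 9 calls for 16. The calls of age within a depot could not be fitted so. Of the 48 other single calls 16 were lost, with the blocked p beside each above, and the other 32 stayed called. As a random block it changed no call.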
